A study of Mus musculus with 2 samples.

Results

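Immediate early genes and heat shock genes were followed through every cell population of the postnatal mouse lung in room air and in hyperoxia. The set was a list of 35 named genes, 25 immediate early genes and 10 heat shock genes, taken from the 27998 genes counted in both libraries. It is a list of names, set up as a check of dissociation stress, and its rule uses no measured value, although earlier results of these data were known when it was drawn up. All 35 genes were found in the counts. The samples were whole lungs of C57BL/6 mice (C57BL/6J in the study's methods) aged 2 weeks, kept from postnatal day 0 to day 14 at 21% oxygen (the room air group) or at 80% oxygen (the hyperoxia group, a model of the arrested alveolar growth of bronchopulmonary dysplasia). Lungs of 8 mice were mixed into 1 droplet-based single-cell RNA library per group, so there was 1 library per group, no mouse could be told from another, and no test between the groups was possible. No genotype, transgene or drug set the groups apart, and both were perfused, minced and digested with warm dispase, collagenase and DNase in the same way.

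Immediate early genes are transcribed within minutes of a growth signal, an injury or a stress, without need of new protein, because their promoters are already loaded with factors that kinases switch on. Many encode transcription factors such as FOS, JUN and EGR1, and many others encode brakes that end the response. Heat shock genes encode chaperones that keep proteins folded, and the inducible ones are switched on by heat shock factor 1 when unfolded protein builds up. Both programs are also known to start while a tissue is being digested into single cells, and what arose in the living lung and what arose in the digest cannot be told apart in these libraries.

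Promoters of 5 members are shown because they carry the DNA words through which these programs are read. The sequences and their positions come from RefSeq on the mouse build GRCm38.p6, run 5′ to 3′ on the strand of the gene, and were searched on both strands over the 250 bases before the start of transcription. A promoter was matched for 27 of the 35 members, and for Egr1, Egr3, Myc, Ier2, Nfkbiz, Ctgf, Hsp90aa1 and Hspa8 no promoter was shown or searched. Capitals mark the motif. In Fos (chr12:85473640-85473889, plus strand) they mark 2 copies of TGACG, the core of the cyclic AMP response element. In Dusp1 (chr17:26508520-26508722, minus strand, 203 bases that end 47 bases before the start) they mark the whole element, TGACGTCA. In Hspa1a (chr17:34972157-34972406, minus strand), Hspa1b (chr17:34959239-34959488, minus strand) and Hspb1 (chr5:135887669-135887918, plus strand) they mark pairs of facing heat shock units, 1 pair in each of Hspa1a and Hspa1b and 2 pairs in Hspb1.
Fos: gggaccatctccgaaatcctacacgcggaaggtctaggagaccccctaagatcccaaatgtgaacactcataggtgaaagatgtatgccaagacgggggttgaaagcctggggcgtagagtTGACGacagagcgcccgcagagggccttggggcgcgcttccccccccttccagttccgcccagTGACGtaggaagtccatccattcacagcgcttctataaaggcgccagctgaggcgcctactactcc
Dusp1: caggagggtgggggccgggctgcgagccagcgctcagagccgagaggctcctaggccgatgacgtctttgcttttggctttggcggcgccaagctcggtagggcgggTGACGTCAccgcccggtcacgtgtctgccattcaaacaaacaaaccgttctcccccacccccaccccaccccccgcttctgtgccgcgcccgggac
Hspa1a: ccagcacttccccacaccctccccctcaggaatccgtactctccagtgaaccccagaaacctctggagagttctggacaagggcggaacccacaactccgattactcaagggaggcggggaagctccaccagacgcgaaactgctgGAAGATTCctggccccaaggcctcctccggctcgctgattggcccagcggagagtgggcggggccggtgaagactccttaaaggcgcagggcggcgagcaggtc
Hspa1b: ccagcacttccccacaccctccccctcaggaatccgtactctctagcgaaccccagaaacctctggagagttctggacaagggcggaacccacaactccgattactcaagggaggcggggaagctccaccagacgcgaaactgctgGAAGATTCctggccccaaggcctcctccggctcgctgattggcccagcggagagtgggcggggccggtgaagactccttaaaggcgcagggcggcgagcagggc
Hspb1: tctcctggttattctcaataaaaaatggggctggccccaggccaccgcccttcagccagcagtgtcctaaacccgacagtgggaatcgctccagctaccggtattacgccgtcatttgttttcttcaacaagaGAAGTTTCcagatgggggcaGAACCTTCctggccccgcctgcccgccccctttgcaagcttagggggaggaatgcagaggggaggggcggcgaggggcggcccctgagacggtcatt

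The Hspa1a and Hspa1b windows were identical at 247 of 250 bases, with the marked unit beginning 104 bases before the start in both. The 3-unit heat shock element, TTCNNGAANNTTC or GAANNTTCNNGAA, was found in the promoters of Hspe1 and Hspd1, a gene pair that shares 1 stretch between them, and in 0.466% of 32851 mouse promoters of the same length. The shorter 2-unit form, GAANNTTC or TTCNNGAA, which lies inside the longer one and was searched after it, was found in 7 of the 8 heat shock genes with a promoter. Those were Hspa1a, Hspa1b, Hspb1, Hsph1, Dnaja1, Hspe1 and Hspd1. It was found in 3 of the 19 immediate early genes with a promoter (Jun, Egr2 and Cyr61) and in 12.8% of all promoters. TGACG was found in 9 of the 19 immediate early genes and 4 of the 8 heat shock genes, against 17.8% of all promoters. The full TGACGTCA was found in Btg2 and Dusp1 (1.55% of all promoters), and the CArG box, the site of serum response factor, in Egr2 and Zfp36 (1.47% of all promoters). The box TATAAA was found in Fos, Nr4a2, Zfp36l1 and Cyr61 (12.4% of all promoters). Some members have several promoters in the table, and a gene was counted when any of them matched, while the background is a share of promoters. Counted by promoter, the 2-unit form was found in 8 of the 13 promoters of heat shock genes and 3 of the 23 of immediate early genes, and TGACG in 4 of 13 and 11 of 23. A match describes letters in this window and does not show that a factor was bound.

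The room air library held 4234 barcodes and 39593888 unique molecular identifiers (UMIs), the hyperoxia library 13223 barcodes and 111934936 UMIs. After filters, 3680 and 10472 cells were kept, with medians of 8067 and 7169 UMIs per cell, and 12 barcodes occurred among the cells of both libraries. Cells were clustered without the 35 genes and without other genes of the same pathways, and clusters were named from marker genes with the suffix -like. This gave 5 lineages, and 20 cell types with at least 30 cells in each library that were compared. The adventitial fibroblast-like cluster had the cartilage genes Col2a1, Col9a1 and Acan among its leading genes, so it is not of adventitial fibroblasts alone. The median share of mitochondrial UMIs was higher in hyperoxia in all 5 lineages, for example 2.99% and 3.60% of UMIs in endothelial-like cells and 3.55% and 4.34% in epithelial-like cells, and its part in the values below was not tested. Levels are given as CPM (counts per 1000000: UMIs of a gene over all UMIs, both summed over the cells of a type), and differences as log2 ratios with hyperoxia in the numerator and an exact 95% interval. The intervals reflect counting error alone and say nothing of the spread between mice. Three-prime counts are not scaled for how well each transcript is captured, so levels are compared between cells and libraries and not between genes.

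Summed over the 25 immediate early genes, the largest positive log2 ratio of any lineage was in stromal-like cells. It was 11008 in room air and 15820 CPM in hyperoxia there, a log2 ratio of 0.52 (interval 0.51 to 0.53). In lymphocyte-like cells the sum was 6196 and 7850 CPM (0.34), in myeloid-like cells 11530 and 12668 CPM (0.14), and in endothelial-like cells 9249 and 10076 CPM (0.12). The myeloid-like value was 0.50 as a mean over single cells, beside 0.50 for stromal-like cells taken that way, and 0.033 under a stricter cell filter (immediate early sum log2 ratio, myeloid-like). Epithelial-like cells had the lowest sum in both libraries and the opposite direction, 5263 and 3066 CPM (-0.78), which was -0.35 without club-like cells. The order of the lineages was the same in both libraries for 9 of 10 pairs, with stromal-like and myeloid-like cells changing places.

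The sum of the 10 heat shock genes had the same direction as the immediate early sum in endothelial-like, stromal-like and epithelial-like cells, and the opposite one in myeloid-like and lymphocyte-like cells. It was higher in hyperoxia in endothelial-like cells (3358 and 3838 CPM, log2 ratio 0.19) and stromal-like cells (3753 and 4292 CPM, 0.19). It was lower in myeloid-like cells (6813 and 4924 CPM, -0.47, interval -0.49 to -0.45), in epithelial-like cells (2837 and 2251 CPM, -0.33) and slightly in lymphocyte-like cells (5211 and 4947 CPM, -0.08). The epithelial-like value was not matched within the types compared, at 0.08 in AT2-like and -0.06 in AT1-like cells. It depended on club-like cells and on the removal of doublets, as given below. In myeloid-like cells the 2 programs thus stood on opposite sides of 0. All genes of that lineage had a median log2 ratio of -0.09, so its zero lies slightly below that of the other lineages, whose medians ran from 0.00 to 0.05.

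**Figure D1:**
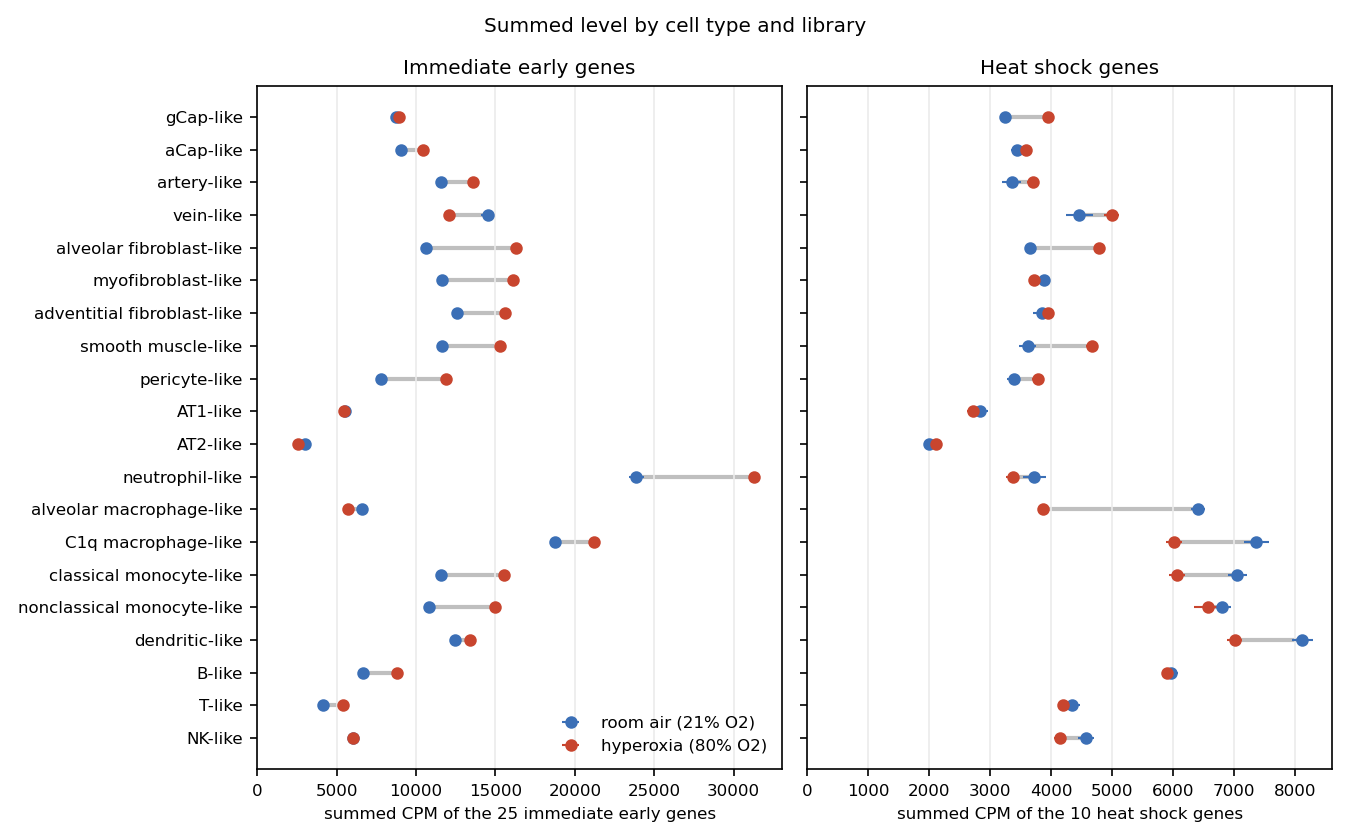
Summed CPM of the 25 immediate early genes (left) and the 10 heat shock genes (right) in 20 cell types, with 1 point per library (blue room air, red hyperoxia), a grey bar joining the libraries and exact 95% counting intervals mostly hidden behind the points. On the left, hyperoxia lies higher in all 5 stromal-like types. On the right it lies lower in all 6 myeloid-like types, with the widest gap in alveolar macrophage-like cells.

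Within cell types, the immediate early sum was higher in hyperoxia in 16 of 20 types, with 15 intervals above 0 and 3 below. All 5 stromal-like types were among the 16. Alveolar fibroblast-like cells, the lipid-bearing fibroblasts beside the alveolar epithelium, had 10614 in room air and 16295 CPM in hyperoxia (log2 ratio 0.62). Pericyte-like cells, which wrap capillaries, had 7763 and 11878 CPM (0.61), and myofibroblast-like cells 11644 and 16080 CPM (0.47). In room air the 5 stromal-like types ran from 7763 to 12567 CPM, and in hyperoxia from 11878 to 16295 CPM, so those 2 ranges overlapped only between the lowest hyperoxia and the highest room air value.

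The highest immediate early level of any type was in neutrophil-like cells, 23856 in room air and 31262 CPM in hyperoxia (log2 ratio 0.39), followed by C1q macrophage-like cells, 18736 and 21184 CPM (0.18). Classical and nonclassical monocyte-like cells were higher by similar steps, 11551 and 15558 CPM (0.43) and 10819 and 14970 CPM (0.47). Among endothelial-like types the sum was 8769 and 8935 CPM in gCap-like (general capillary) cells, 9034 and 10434 CPM in aCap-like (aerocyte) cells and 11585 and 13606 CPM in artery-like cells. Vein-like cells went the other way, 14507 and 12070 CPM (-0.27), on only 32 cells in room air. The other types with a lower sum were alveolar macrophage-like cells (6626 and 5692 CPM, -0.22), AT2-like cells (3019 and 2567 CPM, -0.23) and AT1-like cells (5508 and 5487 CPM), whose interval of -0.07 to 0.05 spans 0. NK-like cells had nearly equal levels, 6010 and 6016 CPM, while B-like and T-like cells were higher in hyperoxia by 0.41 and 0.38 on the log2 scale. The NK-like class had the T cell genes Cd3d, Cd3g and Cd28 among its leading genes, so it is not of NK cells alone. It held 92 and 302 cells, and 45 and 125 with no doublets removed.

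The heat shock sum differed in direction between types, for the most part by lineage. It was higher in hyperoxia in 9 types and lower in 11, with 8 intervals on each side of 0. All 4 endothelial-like types were higher, led by gCap-like cells (3252 and 3949 CPM, 0.28), and 4 of 5 stromal-like types were higher, led by alveolar fibroblast-like cells (3653 and 4795 CPM, 0.39). AT2-like cells were slightly higher (0.08, interval above 0), and AT1-like cells had a value of -0.06 with an interval that spans 0. All 6 myeloid-like types and all 3 lymphocyte-like types were lower, by least in nonclassical monocyte-like (-0.05) and B-like cells (-0.02). Counts of genes did not always follow the sum. Above 0 were 6 of 9 heat shock genes in T-like, 6 of 10 in nonclassical monocyte-like and 4 of 10 in aCap-like cells. In the other types of these lineages more genes lay on the side of the sum. Alveolar macrophage-like cells had 6416 and 3872 CPM (-0.73, interval -0.76 to -0.70), C1q macrophage-like cells 7372 and 6020 CPM (-0.29) and dendritic-like cells, the highest of all, 8123 and 7015 CPM (-0.21). Across the 20 types the 2 sums had a Pearson correlation of 0.38 in room air and 0.52 in hyperoxia, a description of points that share a library.

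AP-1 is the dimer of FOS and JUN family proteins that binds the promoters and enhancers of growth and stress genes. Its 5 genes summed to 4225 in room air and 6202 CPM in hyperoxia in stromal-like cells (log2 ratio 0.55) and to 4843 and 5300 CPM in myeloid-like cells (0.13). Fosb, whose protein FOSB partners with JUN proteins (ENSMUSG00000003545, chr7:19302696-19310051 on the minus strand of GRCm38), was higher in hyperoxia in 20 of 20 cell types. In pericyte-like cells it was 220 in room air and 520 CPM in hyperoxia (log2 ratio 1.24, interval 1.04 to 1.44). In gCap-like cells it was 107 and 179 CPM (0.74), and in T-like cells 56.7 and 134 CPM (1.24). The smallest difference was in alveolar macrophage-like cells, 298 and 321 CPM, with an interval of -0.02 to 0.24. No other member past the CPM filter in all 20 types had the same direction in every one of them.

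Fos was higher in hyperoxia in 16 of 20 types. In alveolar fibroblast-like cells it was 983 in room air and 1918 CPM in hyperoxia (0.96), and in smooth muscle-like cells 1858 and 3081 CPM. It was lower in vein-like cells (1402 and 905 CPM, -0.63), AT2-like cells (272 and 220 CPM, -0.31), alveolar macrophage-like cells (1355 and 1129 CPM, -0.26) and, at 1102 and 1096 CPM, dendritic-like cells. Jun, the most common FOS partner, was higher in 14 of 20 types and lower in 6. It was 810 and 1520 CPM in stromal-like cells (0.91), 168 and 208 CPM in lymphocyte-like cells (0.31) and 1324 and 1522 CPM in endothelial-like cells (0.20). In myeloid-like cells as a whole it was 438 and 434 CPM, although it was at least 2-fold higher in neutrophil-like cells. Junb was higher in 15 of 20 types, with its highest level in neutrophil-like cells, 3218 and 4566 CPM. Jund, the JUN relative that is transcribed without a stimulus, differed least, with lineage log2 ratios between -0.05 and 0.34.

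Among the other transcription factors, Egr1, a zinc finger protein induced through serum response factor, was higher in 17 of 20 types. Its highest levels were in adventitial fibroblast-like cells, 2094 in room air and 2548 CPM in hyperoxia, and stromal-like cells as a whole had 1416 and 2086 CPM (0.56). Egr2, a relative of Egr1, reached a mean of 10 CPM in 9 types and was highest in alveolar macrophage-like cells, 123 and 117 CPM. In stromal-like cells it rested on 83 UMIs in room air and 446 in hyperoxia, 7.2 and 15.2 CPM (1.08, interval 0.74 to 1.43). Egr3 had 54 UMIs in all kept cells and stayed under a mean of 10 CPM in every type, so no difference was detectable at this depth.

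The orphan nuclear receptors Nr4a1 and Nr4a2, which need no ligand and are controlled by their amount, split between lineages. Nr4a2 was higher in lymphocyte-like cells (86.7 and 159 CPM, log2 ratio 0.87) and stromal-like cells (79.2 and 108 CPM, 0.45), and lower in endothelial-like cells (51.1 and 32.7 CPM, -0.64). Nr4a1 was higher in pericyte-like cells (205 and 430 CPM, 1.07) and lower in gCap-like cells (145 and 94.9 CPM, -0.61) and AT1-like cells (83.0 and 22.2 CPM, -1.90). The AT1-like values rest on 67 and 126 cells, after the doublet step took 50.1% of AT1-like UMIs in hyperoxia and 0% in room air. Klf6, a zinc finger factor induced by injury, was higher in 18 of 20 types, with a median log2 ratio of 0.22 over the types. Myc, a driver of growth and ribosome production, was 10.6 and 25 CPM in myeloid-like cells (1.23), with the difference in alveolar macrophage-like cells (35 and 256 UMIs, 17.3 and 45.0 CPM, 1.37). In the same lineage it was -0.15 in C1q macrophage-like cells, and in dendritic-like cells, on 16 and 13 UMIs, it was 14.9 and 6.96 CPM (-1.09, interval -2.27 to 0.05). It was lower in lymphocyte-like cells, 80.1 and 56.8 CPM (-0.50), and passed the filter in 11 types.

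The Ier genes encode small nuclear proteins of the early response. Ier2 was higher in stromal-like cells (365 and 543 CPM, 0.57) and in endothelial-like cells (565 and 694 CPM, 0.30), and lower in myeloid-like cells (422 and 364 CPM, -0.22). Ier3, which restrains cell death, was at its highest in the endothelium and was lower there in hyperoxia, 1220 and 1047 CPM (-0.22). Ier5, an activator of heat shock factor 1, was higher in 10 types and lower in 10. Among the cell types its largest difference past the filter was in alveolar macrophage-like cells, 306 and 128 CPM (-1.26, interval -1.42 to -1.11), where all genes had a median of -0.24. The heat shock sum was also lowest against room air in that type, and a link between the 2 was not tested.

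Of the brakes on kinases and RNA, Zfp36 was the most uniform. It encodes tristetraprolin, which binds AU-rich mRNA and speeds its decay (ENSMUSG00000044786, chr7:28376784-28380253, minus strand). It was higher in hyperoxia in 19 of 20 types, and in NK-like cells it was 146 and 140 CPM. In pericyte-like cells it was 138 in room air and 374 CPM in hyperoxia (log2 ratio 1.44), in adventitial fibroblast-like cells 228 and 568 CPM (1.32), and in neutrophil-like cells 1585 and 2439 CPM (0.62). Its relative Zfp36l1 behaved differently (ENSMUSG00000021127, chr12:80107754-80113013, minus strand). In endothelial-like cells it was 660 in room air and 322 CPM in hyperoxia (-1.03, interval -1.09 to -0.98). The difference was present within gCap-like cells, 714 and 385 CPM (-0.89), and within aCap-like cells, 291 and 146 CPM (-1.0), and was smaller in artery-like (-0.48) and vein-like cells (-0.32). In stromal-like cells Zfp36l1 was 938 and 956 CPM, and in classical monocyte-like cells it was higher in hyperoxia, 139 and 286 CPM (1.04).

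Dusp1, the phosphatase that switches off stress kinases and has TGACGTCA in its promoter, was higher in stromal-like cells (410 and 685 CPM, log2 ratio 0.74) and lymphocyte-like cells (139 and 232 CPM, 0.74). It was lower in vein-like cells (792 and 400 CPM, -0.99) and AT2-like cells (113 and 61.5 CPM, -0.87). Btg2, which slows the cell cycle and shortens mRNA tails, was 584 and 997 CPM in stromal-like cells (0.77) and 294 and 302 CPM in endothelial-like cells. Of the brakes on NF-kB and cytokine signals, Socs3, the inhibitor of JAK kinases, showed the widest range. It was 98.5 and 343 CPM in classical monocyte-like cells (1.80) and 82.3 and 190 CPM in alveolar fibroblast-like cells (1.21), but 45.0 and 13.1 CPM in AT1-like cells (-1.78) and 54.0 and 26.1 CPM in AT2-like cells (-1.05). The AT1-like value rests on 67 and 126 cells. Nfkbia, the inhibitor that holds NF-kB in the cytoplasm, was 137 and 288 CPM in alveolar fibroblast-like cells (1.07), and Nfkbiz, its nuclear relative, 28.7 and 65.5 CPM in alveolar macrophage-like cells (1.19).

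Ctgf and Cyr61 encode secreted matrix proteins of the CCN family, both known targets of the YAP pathway, and they parted. Ctgf (ENSMUSG00000019997, chr10:24595442-24598683, plus strand) was higher in hyperoxia in all 13 types in which it passed the filter. The filter takes the mean of both libraries, so a type low in Ctgf in room air passed only if hyperoxia was high. This favours higher types in the count. In myofibroblast-like cells Ctgf was 531 in room air and 1767 CPM in hyperoxia (log2 ratio 1.74), and in alveolar fibroblast-like cells 62.5 and 411 CPM (2.72, interval 2.51 to 2.93) on 192 and 5262 UMIs. In aCap-like cells it was 27.8 and 84.7 CPM (1.60), and in AT1-like cells 406 and 647 CPM (0.67). Cyr61 was 817 and 629 CPM in alveolar fibroblast-like cells (-0.38) and 641 and 596 CPM in stromal-like cells, while in gCap-like cells it was 94.6 and 177 CPM (0.91) and in artery-like cells 111 and 470 CPM (2.08). In myeloid-like and lymphocyte-like cells Ctgf stood at 2.61 and 9.46 CPM and at 3.93 and 14.5 CPM, and the collagen gene Col1a2 at 32.1 and 31.0 CPM and at 32.3 and 49.4 CPM, against 4093 and 4468 CPM in stromal-like cells. The part of RNA from other cells in the low Ctgf values of blood cells was not tested. Rhob, a small GTPase of the cytoskeleton, was 277 and 336 CPM in stromal-like cells (0.28) and 304 and 356 CPM in endothelial-like cells (0.23).

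**Figure D2:**
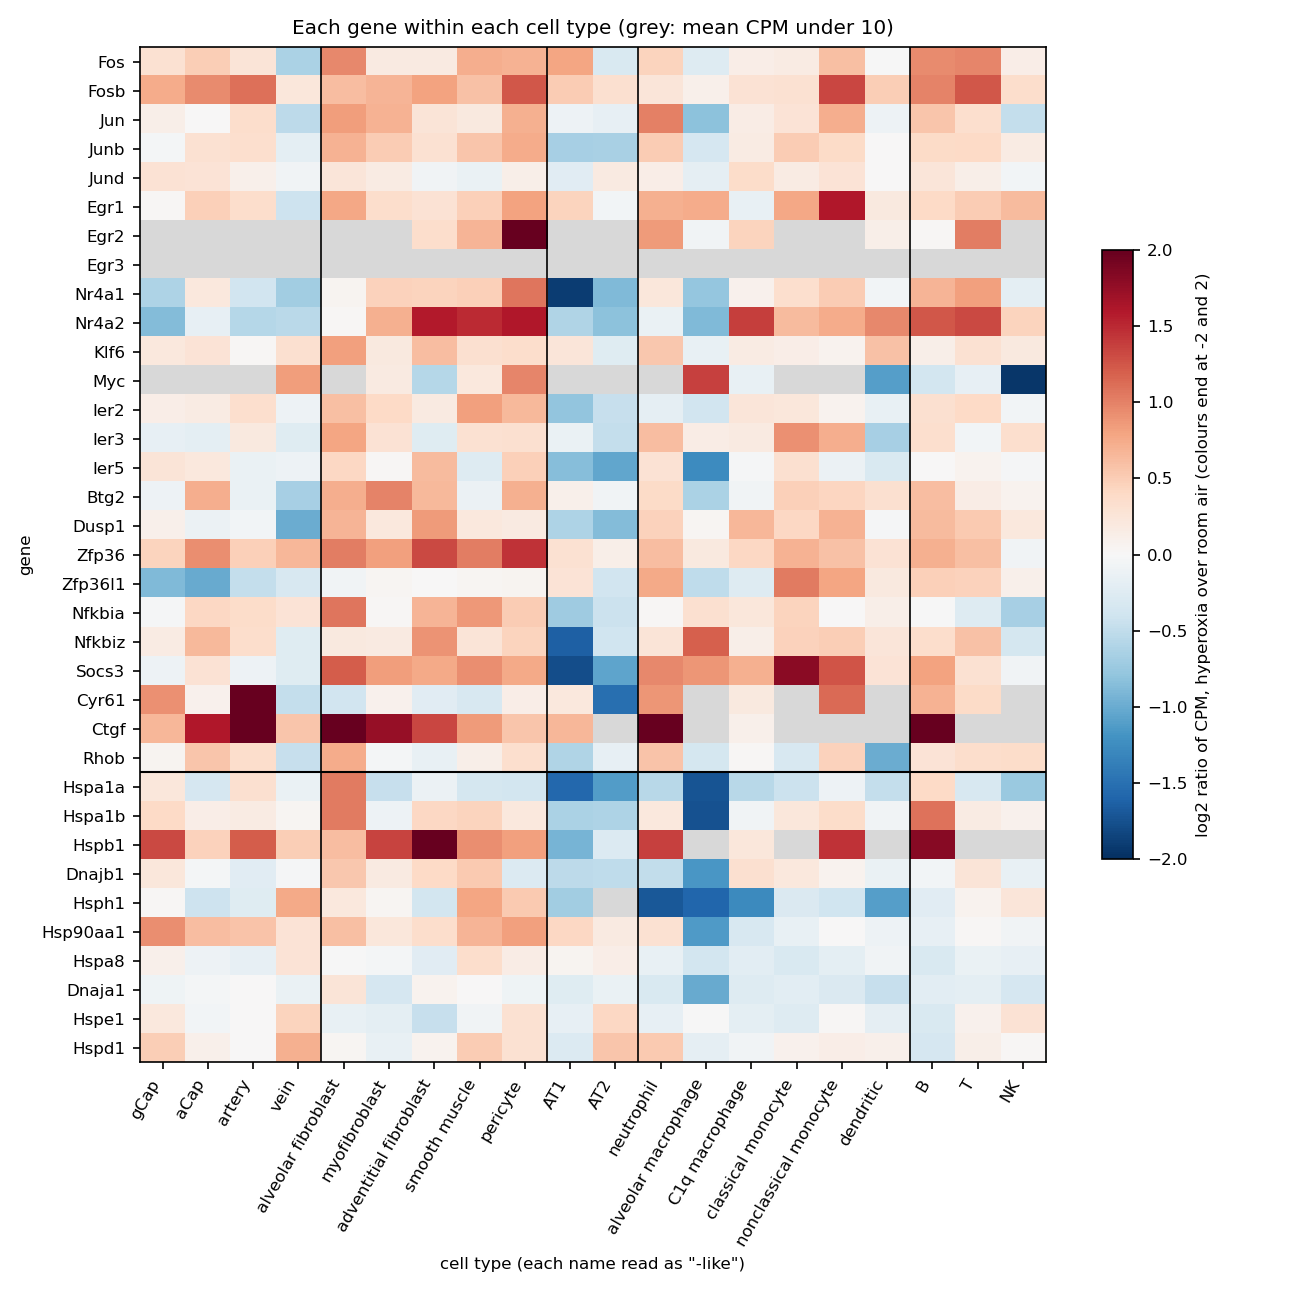
Log2 ratio of CPM (hyperoxia over air) for each of the 35 genes (vertical axis) in each of 20 cell types (horizontal axis), with red higher in hyperoxia, blue lower, grey for a mean under 10 CPM, and lines between lineages and between the immediate early and the heat shock genes. Fosb is red in all 20 columns, Zfp36l1 is blue in the 4 endothelial-like columns, and most heat shock genes are blue in the alveolar macrophage-like column.

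The 6 inducible cytosolic chaperone genes summed to 1144 in room air and 1674 CPM in hyperoxia in endothelial-like cells (log2 ratio 0.55), 1701 and 2244 CPM in stromal-like cells (0.40), and 3279 and 2000 CPM in myeloid-like cells (-0.71). In lymphocyte-like cells they were 2034 and 2190 CPM (0.11), the opposite direction to the whole heat shock sum there, with the constitutive Hspa8 at 1653 and 1422 CPM (-0.22) and Dnaja1 at 874 and 738 CPM (-0.24). At the lineage level the endothelial difference came mainly from 2 of them, Hsp90aa1 (436 and 719 CPM) and Hspb1 (98.9 and 250 CPM). The gCap-like share of endothelial UMIs was 64.2% in room air and 39.0% in hyperoxia, and the aCap-like share 16.7% and 41.9%. The part of this shift in the lineage values was not tested. Hsp90aa1, the stress-inducible HSP90, was 428 and 817 CPM in gCap-like cells (0.94) and 433 and 661 CPM in aCap-like cells (0.61). Hspb1, the small heat shock protein HSP27 that also caps actin filaments (ENSMUSG00000004951, chr5:135887919-135889563, plus strand), was 43.5 and 108 CPM in gCap-like cells (1.32, interval 1.10 to 1.54). It was also at least 2-fold higher in artery-like cells, but not in aCap-like or vein-like cells.

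Hspb1 was the member that differed most from the other chaperones. It was higher in hyperoxia in 13 of the 15 types past the filter, among them adventitial fibroblast-like cells (17.7 and 120 CPM, 2.76), myofibroblast-like cells (73.9 and 189 CPM, 1.35) and alveolar fibroblast-like cells (555 and 855 CPM, 0.62). The exceptions were AT1-like cells, 294 and 154 CPM (-0.93), and AT2-like cells, 65.0 and 53.8 CPM (-0.27). Types low in Hspb1 in room air passed the filter only if hyperoxia was high, which favours higher types in the count. The adventitial fibroblast-like value rests on 43 and 246 cells of a mixed class. The doublet step had taken 23.1% of the UMIs of that class in hyperoxia and 0% in room air. Across the 20 types the level of Hspb1 correlated negatively with the summed level of the other 9 heat shock genes, with Pearson r of -0.73 in room air and -0.44 in hyperoxia, whereas Hspa1b had 0.91 and 0.90. These are descriptions over 20 points of 1 library each. In B-like, T-like and NK-like cells Hspb1 was at most 15.7 CPM in either library.

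Hspa1a and Hspa1b encode the same inducible HSP70 protein from neighbouring genes (ENSMUSG00000091971, chr17:34969190-34972156, and ENSMUSG00000090877, chr17:34956436-34959238, both on the minus strand). Taken singly they pointed in different directions, Hspa1a lower in hyperoxia in 16 of 20 types and Hspa1b higher in 14 of 20. The share of Hspa1a among the UMIs of the pair was smaller in hyperoxia in 18 of 20 types, 59.9% and 56.5% in endothelial-like cells, 64.4% and 58.6% in stromal-like cells and 55.9% and 44.1% in lymphocyte-like cells. Their sequences are nearly identical, so how counting divided reads between them is uncertain, and the pair was also taken as a sum. The sum was higher in hyperoxia in 6 types and lower in 14. It was 433 and 889 CPM in alveolar fibroblast-like cells (log2 ratio 1.04), 1045 and 1725 CPM in B-like cells (0.72) and 404 and 498 CPM in gCap-like cells (0.30). In myofibroblast-like cells, of the same lineage as alveolar fibroblast-like cells, it was 970 and 775 CPM (-0.32).

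Dnajb1, the HSP40 partner of HSP70, was 92.6 and 146 CPM in stromal-like cells (log2 ratio 0.66) and 99.5 and 79.5 CPM in myeloid-like cells (-0.32). Hsph1, the HSP110 that reloads HSP70, was 108 and 47.7 CPM in myeloid-like cells (-1.18, interval -1.34 to -1.02) and 68.5 and 69.2 CPM in stromal-like cells. The constitutive Hspa8, the HSC70 that folds proteins in unstressed cells, differed little outside myeloid-like and lymphocyte-like cells. It was 1318 and 1284 CPM in endothelial-like cells and 1049 and 1033 CPM in stromal-like cells, but 2480 and 2023 CPM in myeloid-like cells (-0.29), and it was lower in hyperoxia in 14 of 20 types. Its partner Dnaja1 was lower in 16 of 20, with 573 and 386 CPM in myeloid-like cells (-0.57) and 327 and 276 CPM in epithelial-like cells (-0.24). The mitochondrial chaperones Hspe1 and Hspd1, which form the HSP10 and HSP60 folding chamber, had lineage log2 ratios between -0.20 and 0.35, and both had their largest ratio in epithelial-like cells, 177 and 218 CPM for Hspe1 and 107 and 137 CPM for Hspd1.

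**Figure D3:**
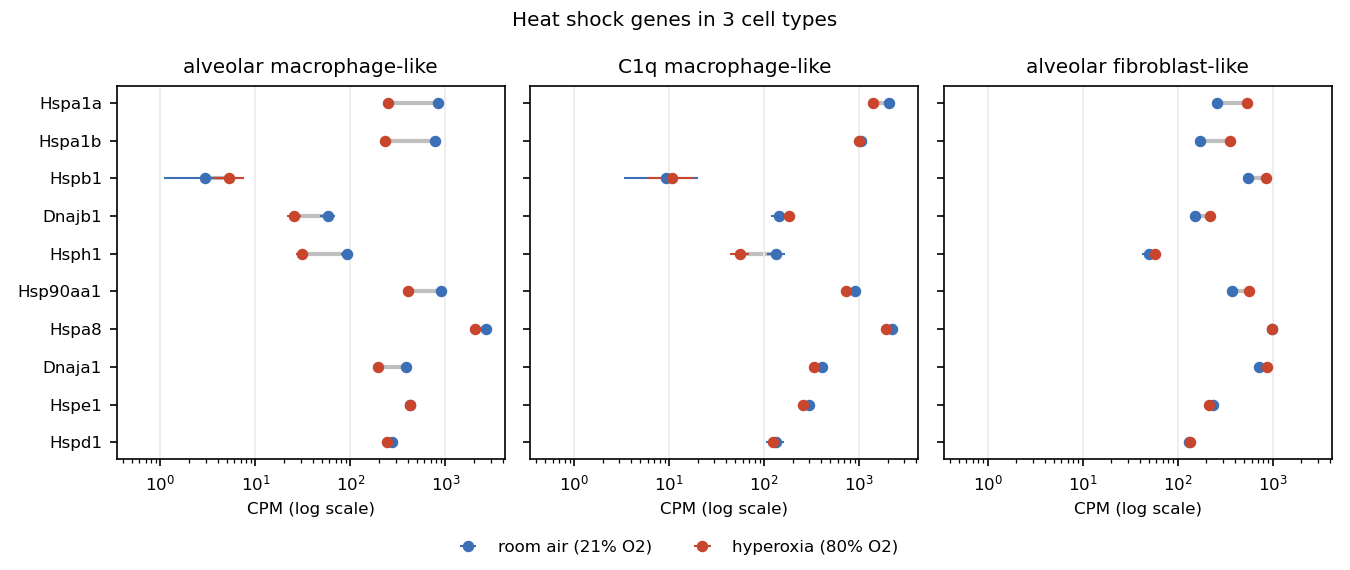
CPM (log scale) of the 10 heat shock genes in alveolar macrophage-like, C1q macrophage-like and alveolar fibroblast-like cells, with 1 point per library (blue room air, red hyperoxia), exact 95% counting intervals and a grey bar between the libraries. In alveolar macrophage-like cells hyperoxia lies to the left for all genes but Hspb1 and, at nearly equal levels, Hspe1, with the longest bars at Hspa1a and Hspa1b, and in alveolar fibroblast-like cells it lies to the right for both of these genes.

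Alveolar macrophage-like cells, the resident phagocytes of the airspace, showed the deepest heat shock difference. Hspa1a was 833 in room air and 251 CPM in hyperoxia (log2 ratio -1.73), and Hspa1b 777 and 232 CPM (-1.74). Hsph1 was 92.7 and 30.9 CPM (-1.58), Dnajb1 57.5 and 25.6 CPM (-1.16), Hsp90aa1 892 and 407 CPM (-1.13) and Dnaja1 388 and 194 CPM (-1.0). These 6 of the 9 heat shock genes past the filter were at least 2-fold lower, against 7.22% of all genes in that type. Hspe1 did not share the difference, at 422 and 420 CPM. All genes of this type had a median log2 ratio of -0.24, and the heat shock sum was -0.45 when libraries were scaled by TMM, so part of the size depends on the scaling. Under that scaling the immediate early sum of these cells turned from -0.22 to 0.06.

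In C1q macrophage-like cells the same genes differed less. Hspa1a was 2046 and 1387 CPM (log2 ratio -0.56), Hspa1b 1056 and 1003 CPM (-0.07) and Hsp90aa1 913 and 733 CPM (-0.32). Hsph1 was the only one of the 10 at least 2-fold lower there, 134 and 55.7 CPM (-1.27). Mitochondrial UMIs had a median of 2.87% and 5.10% in these cells and of 2.61% and 3.42% in alveolar macrophage-like cells.

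Alveolar fibroblast-like and pericyte-like cells had the largest log2 ratios of the immediate early sum. In alveolar fibroblast-like cells 22 immediate early genes passed the filter and 20 of them were above 0, with Cyr61 and Zfp36l1 below. Zfp36, Nfkbia, Socs3 and Ctgf were at least 2-fold higher, as were Hspa1a and Hspa1b, against 2.56% of all genes. In pericyte-like cells 24 of 24 were above 0, and Fosb, Egr2, Nr4a1, Nr4a2 and Zfp36 were at least 2-fold higher, against 3.4% of all genes. In myofibroblast-like cells 22 of 23 were above 0, Ctgf and Hspb1 were at least 2-fold higher, and 1.58% of all genes were. Outside the stroma, 20 of 21 immediate early genes were above 0 in nonclassical monocyte-like cells, 19 of 20 in classical monocyte-like cells and 22 of 24 in B-like cells. The medians over all genes lay between -0.03 and 0.03 in alveolar fibroblast-like, pericyte-like and myofibroblast-like cells. They were 0.035 in nonclassical monocyte-like, 0.051 in classical monocyte-like and 0.072 in B-like cells, where 59.2% of all genes were above 0. The filter was a mean of at least 10 CPM over both libraries, so a gene low in 1 library could pass through the other.

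By lineage, few members reached a 2-fold difference outside the epithelium. In endothelial-like cells Ctgf and Hspb1 were at least 2-fold higher and Zfp36l1 at least 2-fold lower of 32 members past the filter, against 1.83% of all genes higher and 2.28% lower. In stromal-like cells Egr2, Ctgf and Hspb1 were higher and none of 34 was lower, against 1.59% and 1.26%. The alveolar fibroblast-like share of stromal UMIs was 26.7% in room air and 43.7% in hyperoxia, and the myofibroblast-like share 49.6% and 32.7%. The part of this shift in the stromal-like values was not tested. In myeloid-like cells Myc was higher and Hsph1 lower of 32, against 1.41% and 2.46%. In lymphocyte-like cells Fosb was higher and none of 32 was lower, against 0.737% and 0.5%. The median log2 ratio over the members past the filter was 0.22 in endothelial-like, 0.40 in stromal-like, 0.12 in myeloid-like and 0.28 in lymphocyte-like cells, beside 0.01, 0.00, -0.09 and 0.05 over all genes.

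In epithelial-like cells 17 of 32 members were at least 2-fold lower and none was higher, against 5.12% and 1.17% of all genes, and the median was -1.01 beside 0.05. The 19 lower pairs of a member and a lineage, 17 of them epithelial, became 8 without club-like cells, 3 as a mean over single cells and 1 with no doublets removed. Fos was 671 and 260 CPM there (log2 ratio -1.37), Jun 666 and 332 CPM (-1.0), Egr1 366 and 154 CPM (-1.25) and Hspa1a 245 and 56.3 CPM (-2.12). This difference moved with the cell types that made up the lineage. The class named club-like, after the secretory cells of the airways, held 35.1% of the lineage's UMIs in room air and 4.77% in hyperoxia, and AT2-like cells, which make surfactant, 51.1% and 88.1%. That class was not of secretory cells alone, since with no doublets removed the room air airway cells split into 9 club-like cells with 691000 UMIs and 21 ciliated-like cells with 1134395 UMIs. The removal of doublets had taken 123 of 145 airway-like cells (club-like and ciliated-like) from the hyperoxia library and 0 of 30 from the room air library. It had also taken 40 of 168 AT1-like cells in hyperoxia and 0 of 66 in room air.

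Without club-like cells the immediate early sum of the epithelium was lower by less, with a log2 ratio of -0.35, and without removal of doublets it was -0.33. The heat shock sum was -0.01 and -0.12 under these alternatives. As a mean over single cells the immediate early value was -0.05. Of the 17 genes, 4 were also at least 2-fold lower in AT2-like cells and 3 in AT1-like cells, with Socs3 and Hspa1a in both. In AT2-like cells 18 of 21 immediate early genes past the filter were below 0, with a median of -0.40, beside 49.0% of all genes above 0. In AT2-like cells Ier5, Socs3 and Cyr61 of 21 immediate early genes and Hspa1a of 9 heat shock genes were at least 2-fold lower, against 2.72% of all genes. In AT1-like cells, the flat cells of gas exchange, Nr4a1, Nfkbiz and Socs3 of 22 and Hspa1a of 10 were, against 5.34% of all genes. With no doublets removed, club-like cells had an immediate early sum of 5557 CPM in room air (9 cells) and 5957 CPM in hyperoxia (68 cells), and ciliated-like cells 10376 CPM (21 cells) and 7824 CPM (77 cells). The immediate early value of the lineage thus depended on doublet removal, at -0.78 with the step and -0.33 without it. The heat shock value was -0.33 with the step and -0.12 without it. The step took 98.1% of airway-like UMIs in hyperoxia and 0% in room air. The source of the difference that remained without the step was not tested.

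**Figure D4:**
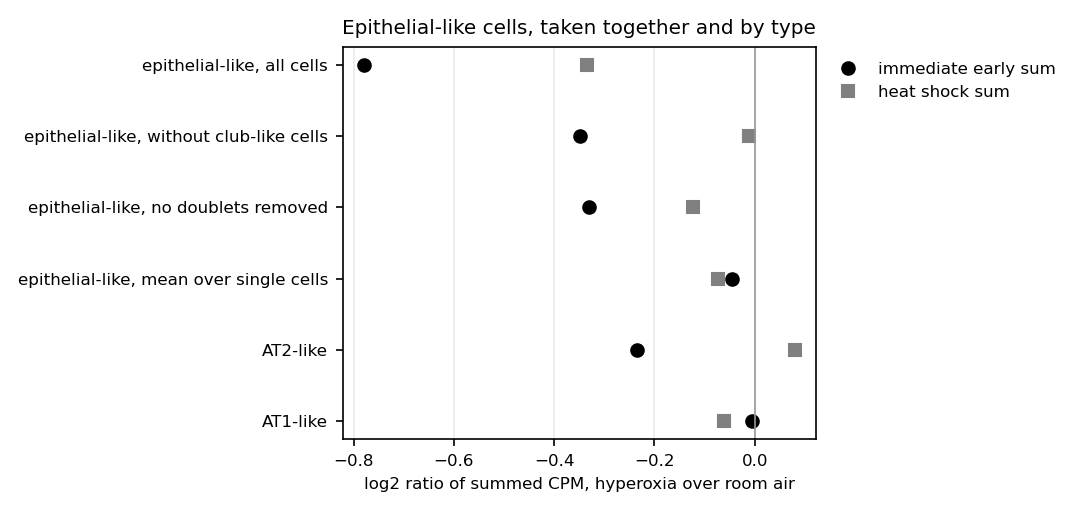
Log2 ratio (hyperoxia over air, horizontal axis) of the summed CPM of the immediate early genes (black circles) and the heat shock genes (grey squares) for epithelial-like cells under 4 ways of taking the lineage, and for AT2-like and AT1-like cells. The immediate early value lies at -0.78 for all cells and between -0.35 and -0.05 in the other 3 ways.

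Within a type, single cells differed widely in their immediate early load. With each cell thinned to 2000 UMIs, the median share of a cell's UMIs that came from the 25 genes was 0.85% in room air and 1.45% in hyperoxia in alveolar fibroblast-like cells, and 0.60% and 1.15% in pericyte-like cells. The 10th to 90th percentiles of alveolar fibroblast-like cells ran from 0.25% to 2.05% in room air and from 0.30% to 3.05% in hyperoxia, so the cells of the libraries overlapped over most of their range. Without thinning the medians were 0.83% and 1.39%. The thinning left out 27 of the 214 room air and 117 of the 1205 hyperoxia cells of that type.

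Neutrophil-like cells had medians of 2.60% and 3.1%, after 13 of 107 and 159 of 471 cells with fewer UMIs were left out. Alveolar macrophage-like cells had 0.65% and 0.50%. In AT2-like cells the median was 0.20% in room air and 0.25% in hyperoxia, a step of 1 UMI of 2000, while their summed level was lower in hyperoxia, so no order is read from it. In myeloid-like cells as a whole the median share was 1.10% and 1.5% although the summed log2 ratio was 0.14. Neutrophil-like cells were 14.6% of myeloid-like cells in room air and 33.8% in hyperoxia, and alveolar macrophage-like cells, rich in UMIs and low in this sum, were 31.0% and 47.7% of myeloid UMIs. The heat shock share of alveolar macrophage-like cells had a median of 0.55% and 0.35%.

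**Figure D5:**
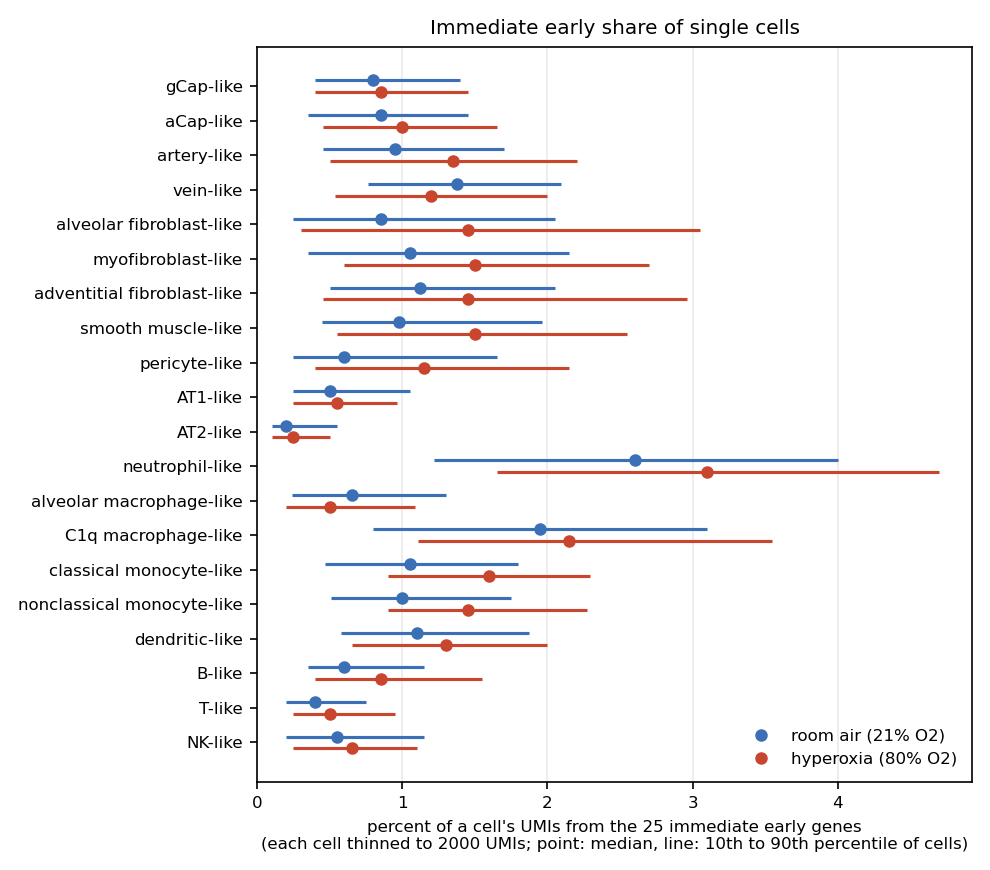
Share of a cell's UMIs from the 25 immediate early genes (horizontal axis, percent) in 20 cell types after thinning each cell to 2000 UMIs, with points at the median over cells, lines from the 10th to the 90th percentile, blue for room air and red for hyperoxia. The lines overlap in every type, and the medians are farthest to the right in neutrophil-like cells, at 2.60% and 3.1%.

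Other genes of the same pathways were counted from lists of 33 further immediate early and dissociation genes, of which 32 were in the counts, and 21 further heat shock genes. In stromal-like cells 21 of 28 further immediate early genes past the filter were above 0, in lymphocyte-like cells 25 of 30, in endothelial-like cells 15 of 27, in myeloid-like cells 16 of 29 and in epithelial-like cells 7 of 26. Over all genes the shares above 0 were 50.6%, 57.0%, 51.5%, 38.7% and 55.8% in the same order, so the endothelial-like count lay near that of all genes. Of these, Tnfaip3 and Sgk1 were at least 2-fold higher in stromal-like cells, Dusp5 was lower in endothelial-like cells and Atf3 and Klf2 in epithelial-like cells. These were 7.14%, 3.70% and 7.69% of the list past the filter, against 1.59%, 2.28% and 5.12% of all genes. The endothelial-like and epithelial-like shares thus lay near those of all genes. Cebpb, Btg1 and Mcl1 had the highest mean level, with lineage log2 ratios of Cebpb between -0.61 and 0.46. Sgk1, a kinase induced by glucocorticoids, was 33.6 in room air and 98.4 CPM in hyperoxia in stromal-like cells (1.55), and Klf9, also a glucocorticoid target, 253 and 495 CPM (0.97), with a higher level in hyperoxia in all 5 lineages. Atf3, a stress-induced partner of AP-1, was 139 and 19.4 CPM in epithelial-like cells (-2.85), and the kinase gene Pim1 104 and 57.0 CPM in endothelial-like cells (-0.87).

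The further heat shock genes were above 0 in 13 of 20 past the filter in endothelial-like cells, 12 of 21 in stromal-like cells, 7 of 19 in epithelial-like cells, 7 of 17 in myeloid-like cells and 9 of 18 in lymphocyte-like cells. Over all genes the shares above 0 were 51.5%, 50.6%, 55.8%, 38.7% and 57.0% in the same order. The stromal-like, myeloid-like and lymphocyte-like counts thus lay near those of all genes. Hspa4l and Hspb8 were at least 2-fold higher in stromal-like cells, against 1.59% of all genes. In epithelial-like cells Hspa9 was higher and Hspa4l lower, against 1.17% and 5.12% of all genes, and 1 of 19 lower lies near that share. Ubb and Hsp90ab1 were among those with the highest mean level. Hsp90ab1, the constitutive HSP90, was higher in hyperoxia in all 5 lineages, from 0.06 in stromal-like to 0.28 in endothelial-like cells on the log2 scale. Hspa9, the mitochondrial HSP70, was 62.4 and 153 CPM in epithelial-like cells (1.29), and Dnajb4 45.6 and 72.8 CPM in endothelial-like cells (0.68). The part of the unequal share of club-like cells in the epithelial-like values of Hspa9 and Hspa4l was not tested.

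The members differed in how closely their level followed the rest of their list across cell types. With the summed level of the other immediate early genes over 20 types, Fosb had a Pearson r of 0.85 in room air and 0.86 in hyperoxia, Fos 0.75 and 0.80, Dusp1 0.75 and 0.82, Zfp36 0.73 and 0.81, Jun 0.33 and 0.44, and Myc -0.12 and -0.06. Outside the lists, the genes whose level followed the immediate early sum most closely over the 40 points of 20 types and 2 libraries were Picalm (0.79), Sde2 (0.77), Marcksl1 (0.75), Hacd4 (0.75) and Zfand5 (0.74), out of 3479 genes compared. These points share libraries, and no test was made on them.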

How the data were processed

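Whole lungs of mice kept in room air or hyperoxia gave 1 single-cell library each. The authors deposited UMI counts per gene and barcode, made with Cell Ranger on mm10; the submitters' processing notes name version 2.1.1, the protocol 6.1.1 and the file headers 3.1.0. From these counts, barcodes with fewer than 500 genes or over 20% mitochondrial UMIs were removed, as were doublets at 0.8% per 1000 barcodes by simulated doublet scores. Cells of both libraries were clustered together (2000 variable genes, 30 principal components, 20 neighbours, Leiden resolution 1) without the members, and clusters were named from at least 3 markers. Counts were summed per cell type and library and divided by total UMIs (CPM). No test was possible between 2 single libraries. Intervals are exact at 95% (Poisson for CPM, binomial for ratios) and cover counting error only. Differences of at least 2-fold were counted among genes with a mean of at least 10 CPM over both libraries. Named further genes were the 3 with the highest mean CPM, and the 2 with the largest rise and fall, of each list among genes with a mean of at least 50 CPM. One gene that this rule names is not reported here. Steps were tested on simulated data. Python 3.11.15, numpy 2.4.6, scipy 1.17.1, pandas 2.3.3, scikit-learn 1.9.0, leidenalg 0.10.2, igraph 0.11.9 and matplotlib 3.10.9 were used. The members and lists were chosen with earlier results of these data known. The naming rule, the minimum of 30 cells per type and leaving club-like cells out of the comparison of types were set after clusters and values were seen.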

Additional observations from a re-analysis of the deposited data

Results flagged for a closer look

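Cell types of the same pair of libraries differed from each other in their hyperoxia difference. For the immediate early sum, the log2 ratio of alveolar fibroblast-like cells (0.62) exceeded that of vein-like cells (-0.27) by 0.88, and the counting intervals of both lay on opposite sides of 0. For the heat shock sum, the log2 ratio of alveolar fibroblast-like cells (0.39) exceeded that of alveolar macrophage-like cells (-0.73) by 1.12. Both pairs were taken because they had the highest and the lowest value among the 20 types, and neither difference was tested, since each group had 1 library.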

How the results depend on the processing

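Of 166 lineage sums and counts recomputed, 97 stayed within their counting interval or within 1.5 times the count, and 69 moved. All 10 lineage sums kept their direction under every alternative but the median over cell types, which put the heat shock sum of epithelial-like cells at 0.01. Of the 40 sums by type, 37 to 40 kept their direction. The exceptions were the immediate early sum of AT1-like cells (stricter filter, TMM and the smaller totals), NK-like cells (TMM, the smaller totals and without shared barcodes) and alveolar macrophage-like cells (TMM), and the heat shock sum of aCap-like and adventitial fibroblast-like cells (single cells) and nonclassical monocyte-like cells (thinned).

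The immediate early sum log2 ratio in endothelial-like, stromal-like, epithelial-like, myeloid-like and lymphocyte-like cells moved to 0.18, 0.55, -0.72, 0.25 and 0.29 with TMM factors, and to 0.10, 0.48, -0.68, 0.15 and 0.32 with totals without mitochondrial, ribosomal protein and haemoglobin genes. In the same order it moved to 0.16, 0.54, -0.88, 0.033 and 0.30 under a stricter filter (1000 genes, 10% mitochondrial UMIs), and to 0.14, 0.51, -0.27, 0.42 and 0.37 with cells thinned to 2000 UMIs. In stromal-like, epithelial-like, myeloid-like and lymphocyte-like cells it moved to 0.50, -0.045, 0.50 and 0.36 as a mean over single cells, and to 0.47, -0.12, 0.28 and 0.38 as a median over cell types. In endothelial-like, epithelial-like and myeloid-like cells it moved to 0.15, -0.81 and 0.12 when the members took part in clustering, to 0.16, -0.91 and 0.11 at resolution 2, and, with 0.29 in lymphocyte-like cells, to 0.15, -0.33 and 0.10 with no doublets removed.

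The heat shock sum log2 ratio in the same 5 lineages moved to 0.25, 0.22, -0.27, -0.35 and -0.13 with TMM factors and to 0.17, 0.15, -0.23, -0.45 and -0.10 with the smaller totals. It moved to 0.22 in endothelial-like and -0.43 in myeloid-like cells under the stricter filter, and to 0.22, -0.13 and -0.37 in endothelial-like, epithelial-like and myeloid-like cells when thinned. Over single cells the heat shock sum log2 ratio, epithelial-like, was -0.073 and, myeloid-like, -0.44. As a median over cell types it was 0.15, 0.16 and -0.22 in endothelial-like, stromal-like and myeloid-like cells. With no doublets removed it was 0.22 in stromal-like and -0.12 in epithelial-like cells, and at resolution 2 it was -0.38 in epithelial-like cells. Without club-like cells the immediate early and heat shock values of epithelial-like cells were -0.35 and -0.011.

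Of 7 member and lineage pairs at least 2-fold higher and 19 lower, 11 and 1 were counted with no doublets removed. The lower pairs numbered 3 over single cells, 5 when thinned and 8 without club-like cells. Of these 26 pairs, 22 were still at least 2-fold in the same direction with TMM factors, 7 with no doublets removed and 6 as a median over cell types. In epithelial-like cells the log2 ratio turned for Junb (0.048), Egr1 (0.11), Socs3 (0.011) and Hsph1 (0.10) over single cells, and for Fos (0.24) and Egr1 (0.19) as a median over cell types, as did Myc (-0.15) in myeloid-like cells. The cause was not tested, except that fewer cells or UMIs enter when club-like cells are left out or cells are thinned. Leaving out club-like cells, the low-UMI endothelial cluster or shared barcodes, and the median over cell types, were chosen after seeing the data. No paired analysis was possible because each group had 1 library.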
